A study of Mus musculus with 1 sample.

Results

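The MYC-MAX network is a small set of transcription factor genes, and its 10 genes Myc, Mycn, Mycl, Max, Mxd1, Mxi1, Mxd3, Mxd4, Mnt and Mlx were examined here in cultured mouse lung tumor cells. The genes were chosen by name, with earlier results of these data known. Every probe set that named 1 of them and no other gene was used. These were 24 of the 34945 probe sets that named 1 gene, and 10 of 18193 measured genes. The data analysed were 1 sample of 1 group, labelled KR Primary, a cell line derived from a KR tumor of the B6/J strain with lung cancer cells as its cell type. The series title speaks of kras tumors, but the labels spell out neither KR nor the alleles, Cre driver or number of animals or clones behind the line. The cells grew in RPMI1640 with 10% serum to between 80% and 90% confluency, and 150 ng of total RNA was labelled for an Affymetrix array. With 1 array there is no replicate error, no comparison between conditions and no p-value, and the number of arrays limits the precision.

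The proteins of the network share a basic helix-loop-helix leucine zipper, which binds DNA as a dimer at the E-box CACGTG. MAX is the shared partner: MYC, MYCN and MYCL pair with it to activate genes of growth, ribosome production and metabolism, whereas the MXD proteins, MXI1 and MNT pair with it to recruit the SIN3 histone deacetylase complex and repress. MLX is a MAX-like partner that pairs with the nutrient sensors MondoA and ChREBP and with some of the repressors. In tumors driven by RAS, ERK signalling is known to stabilise the MYC protein, a step that an RNA array does not measure.

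A signal is the summarised brightness of a probe set in arbitrary units. Probe sets report the same amount of RNA with different brightness, so the order of signals between genes is not the order of their RNA amounts, and each signal was set against a background of 126 probe sets for genes of the nose, taste buds and hair (smell, pheromone and bitter taste receptors and keratin-associated proteins). The 95th percentile of the background, 16.8, is called the background line, and its highest probe set, 60.6, the upper background limit. The upper limit rested on 1 keratin-associated probe set, and the next highest background signal was 42.2. Checked against the label of lung cancer cells, 7 of 7 epithelial markers were above the upper limit, with Epcam at 3219 and 265, Krt8 from 5844 to 7422 and Krt18 at 7600.2. Of 11 markers of lung epithelium, 5 passed the line and 3 the upper limit, namely Sftpd at 397, Abca3 at up to 370.4 and Hopx at up to 132, named after their values were seen. Nkx2-1, the regulator of lung epithelial identity, read 7.66, and Sftpc read 21.1 and 5.49. For comparison, 63.3% of all measured genes had a probe set above the line, and 47.5% had 1 above the upper limit. The lung markers were below these shares, at 45.5% and 27.3%. Of other cell types, 1 of 8 fibroblast, 2 of 5 leukocyte, 2 of 5 endothelial and 0 of 2 red cell markers passed the line. Their highest signals ranged from 3.95 to 19.3, from 3.34 to 69.8, from 4.12 to 30.3 and from 1.52 to 8.23, and Col1a1 (at most 10.4), Ptprc (at most 11.5) and Pecam1 (14.3) were below the line. Above it were Col1a2 at 19.3, the macrophage genes Cd68 at 69.8 and Csf1r from 29.4 to 47.1, and the endothelial genes Kdr at 30.3 and Cdh5 at 17.4, named here after their values were seen. Of these genes, only Cd68 also exceeded the upper limit of 60.6. The part of other cells in the signals below was not tested.

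The DNA element of the network is also present near the starts of some of its own genes. RefSeq windows of assembly GRCm38.p6, from 250 bases before to 50 bases after the start that the table sets, were at hand for 9 of the 10 genes (11 windows, of which 3 belong to Mxi1). Myc had no window and was not searched. Of the 9 genes, 4 held CACGTG. They are shown, 30 bases each, because they are the 4 network genes whose own windows carry the sequence the network binds. Capitals mark the E-box and each stretch is written 5′ to 3′ on the strand of its gene.
Max (chr12:76962234-76962263, minus strand): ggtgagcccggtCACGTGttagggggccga
Mlx (chr11:101087238-101087267, plus strand): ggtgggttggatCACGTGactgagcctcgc
Mnt (chr11:74830789-74830818, plus strand): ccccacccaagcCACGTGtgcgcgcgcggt
Mxd4 (chr5:34187912-34187941, minus strand): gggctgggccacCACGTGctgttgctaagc

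The first base of the E-box lay 3 bases before the start for Max, 40 for Mlx, 123 for Mnt and 219 for Mxd4. The windows of Mycn, Mycl, Mxd1, Mxi1 and Mxd3 held no such letters, which says nothing about more distant sites. The letters CACGTG read the same on both strands and were found in 7.15% of all 32851 windows, in 8.09% of the 27025 genes of the table and in 10.2% of the 14452 measured genes with a window. A pair of other palindromes searched for comparison, CAGCTG and GACGTC, neither of which contains or is contained in CACGTG, were found in 0 of the 9 network genes, and in 18.8% and 7.02% of measured genes. CpG is the dinucleotide inside CACGTG, and it was counted in the window of each gene that held most. The median was 25 over the network genes, 18 over measured genes and 22 over measured genes above the line. These matches describe the sequence and do not show that a factor bound there.

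**Figure D1:**
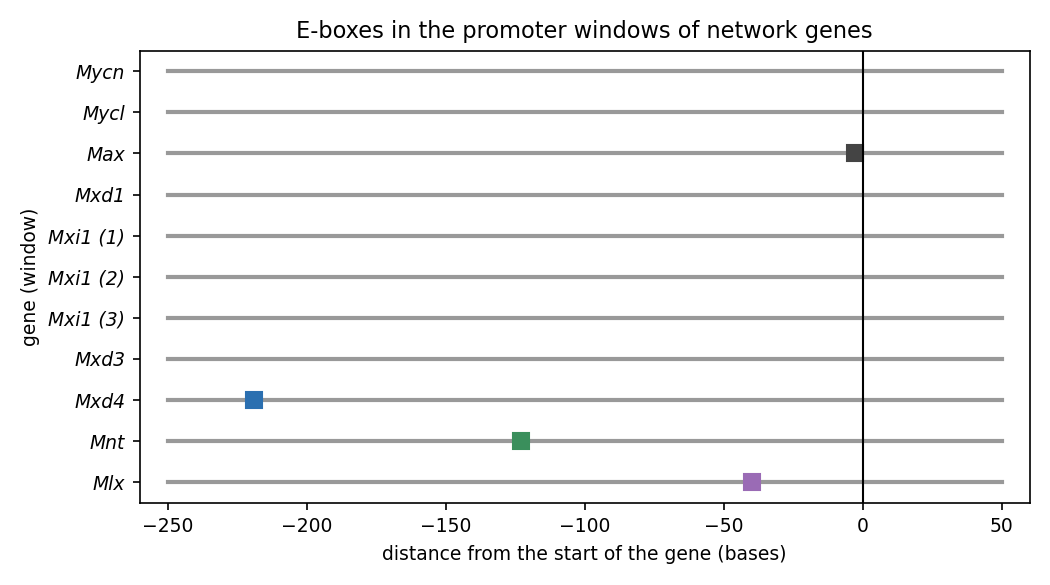
Map of the 11 promoter windows of 9 network genes, with the distance from the start of the gene in bases on the x axis. Each grey bar is a window from 250 bases before to 50 after the start (black line), and each square the first base of a CACGTG, colored by family (black MAX, blue MXD, green MNT, purple MLX). The squares of Max, Mlx, Mnt and Mxd4 lie 3, 40, 123 and 219 bases before the start.

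Of the 10 genes, 9 passed the background line on 1 probe set or more, beside 63.3% of all measured genes, and 7 passed the upper limit, beside 47.5%. In 8 of the 10 every probe set was above the line, beside 47.0% of all measured genes. Counted by probe set, 20 of 24 were above the line, beside 60.9% of all that named 1 gene, and 10 of 24 above the upper limit, beside 41.1%. The share of network probe sets above the upper limit was thus about that of the array, while 10 further probe sets lay between both thresholds and 4 were not above the line. The median network probe set stood at the 54.9th percentile of brightness on the array. Taking the highest probe set of each gene, the median was 108 over the 10 genes and 48.3 over all measured genes. Genes with more probe sets pass more often (48.4% of genes with 1, 72.4% with 2, 82.3% with 3 and 87.5% with 4), which bears on every count by gene. The highest signal of a gene can also only rise as probe sets are added. This bears on the medians of highest signals, here and in the lists below.

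**Figure D2:**
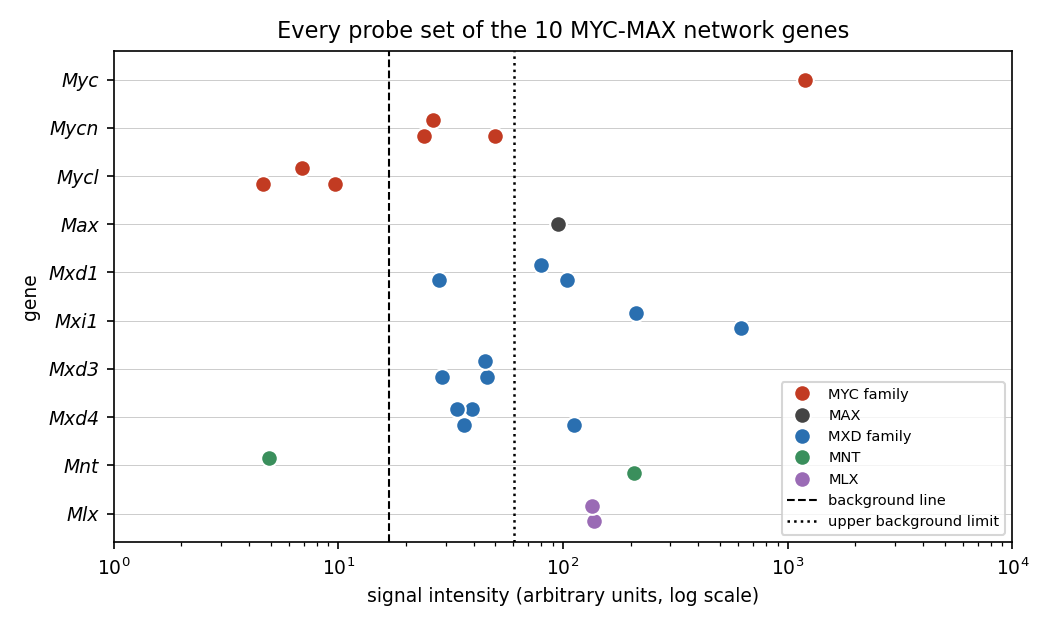
Signal of each of the 24 probe sets (points, log axis, arbitrary units) by gene, colored by family, with the background line at 16.8 (dashed) and the upper background limit at 60.6 (dotted). Points are offset vertically so that close values can be told apart. Myc and the brighter Mxi1 probe set lie farthest to the right at 1195 and 620.1, and the 3 probe sets of Mycl and 1 of Mnt lie left of the line.

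Among the activators, the 3 MYC genes lay in 3 different ranges. Myc, the broadly expressed oncogene of the family, was measured by 1 probe set, 1424942_a_at, which read 1195. This is 71.1 times the background line, 19.7 times the upper limit, and the 95.3th percentile of the array. With a single probe set, no second reading of Myc was to be had on this array.

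Mycn, the paralog best known from the embryo and from neuroblastoma, read 49.7, 26.3 and 24.1 on its 3 probe sets. All 3 were above the line, by 2.96, 1.56 and 1.43 times, and all 3 were below the upper limit, the first being above the next highest background signal of 42.2. Every probe set was above the line in 45.1% of genes with 3 probe sets. Of the 126 background probe sets, 1 was brighter than the brightest Mycn probe set and 2 were brighter than the others.

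Mycl, the paralog first found amplified in small cell lung cancer, read 9.64, 6.89 and 4.62 on its 3 probe sets. None was above the line, and 37, 60 and 77 of the 126 background probe sets were brighter than them. All 3 probe sets of Mycl therefore read within the main range of the background genes. No probe set naming a network gene together with another gene was on the array, so no further reading was to be had from these.

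Max, the partner that every MYC protein needs to bind DNA, was measured by 1 probe set, 1423501_at, which read 95.1. This is 5.66 times the line but only 1.57 times the upper limit, at the 65.3th percentile of the array. None of the background probe sets was brighter. Max is among the genes with an E-box in the window shown above.

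The repressors of the MXD family were all above the line, on all 12 of their probe sets. Mxi1, which encodes a MAX-binding repressor, lay farthest above background in this family. Its 2 probe sets read 620.1 and 212, or 36.9 and 12.6 times the line, and both were above the upper limit. Mxd1, known for rising as cells leave the cycle and differentiate, read 104, 79.4 and 28.0. The first and second of these were above the upper limit and the third was 1.66 times the line.

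Mxd3, the family member known from cells in S phase, read 46.0, 45.0 and 29.0. All 3 were above the line, by 1.72 to 2.74 times, and none reached the upper limit, although the first and second were above 42.2. Mxd4 read 112, 39.3, 36.3 and 33.9 on 4 probe sets. Only the first was above the upper limit, by 1.84 times, and the other 3 lay between 2.02 and 2.34 times the line. All 4 probe sets were above the line in 39.8% of genes with 4.

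Mnt, a repressor that is present in growing and resting cells and opposes MYC, gave a divided result. Its probe set 1418192_at read 207, which is 12.3 times the line, whereas 1418193_at read 4.89, dimmer than 75 of the 126 background probe sets. The annotation lists the same source sequence for both. Mnt is thus above background on 1 probe set only, and the array does not say which of the readings reflects its RNA. Mlx, the MAX-like partner, read 137 and 134 on its 2 probe sets, 8.14 and 7.97 times the line. Both were above the upper limit, and both probe sets were above the line in 49.1% of genes with 2.

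**Figure D3:**
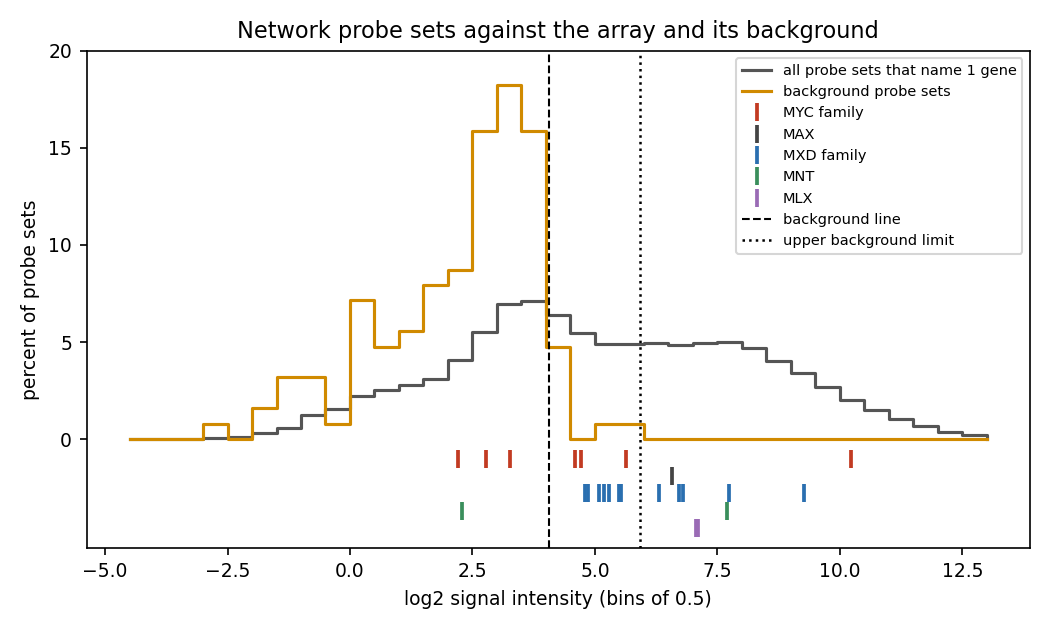
Distribution of log2 signals in bins of 0.5 for the 34945 probe sets that name 1 gene (grey) and the 126 background probe sets (orange), as percent of each, with the 24 network probe sets as ticks under the axis, 1 row per family. Dashed and dotted lines are the background line and the upper background limit. Of the ticks, 4 lie left of the line, 10 between both lines and 10 right of the upper limit, with Myc farthest right at 10.2.

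The spread between the probe sets of a gene is the only measure of disagreement that the array offers. It includes their differences in brightness, so it is not the measurement error of a signal. Of the 8 network genes with 2 or more probe sets, 7 had an SD between probe sets under 1.45 on the log2 scale, the median over 9010 genes. The SD was 0.02 for Mlx, 0.38 for Mxd3, 0.53 for Mycl, 0.57 for Mycn, 0.81 for Mxd4 and 1.10 for Mxi1, with Mxd1 between these. All Mycl readings were below the line. Mnt stood apart with 3.82, a wider spread than in 94.1% of genes with 2 probe sets, and was the 1 network gene with probe sets on both sides of the line, which 32.9% of genes with 2 or more showed.

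A stricter reading uses pairs of probe sets designed from the same source sequence of a gene. The network held 7 of the 3223 such pairs, and 5 of the 7 differed by less than 2-fold, as did 43.2% of all pairs. The brighter was 1.16 times the dimmer in 1 Mxd4 pair, 1.31 times for Mxd1, 1.40 times for Mycl, 1.59 times for Mxd3 and 1.89 times for Mycn. Both readings of the Mycl pair were below the line, so its small gap is between background readings. The other Mxd4 pair differed by 3.08-fold, a larger gap than in 60.9% of all pairs. The Mnt pair differed by 42.3-fold, a larger gap than in 96.8% of all pairs and in 95.7% of the 2000 pairs whose brighter probe set was above the upper limit. The cause of the Mnt gap was not tested.

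**Figure D4:**
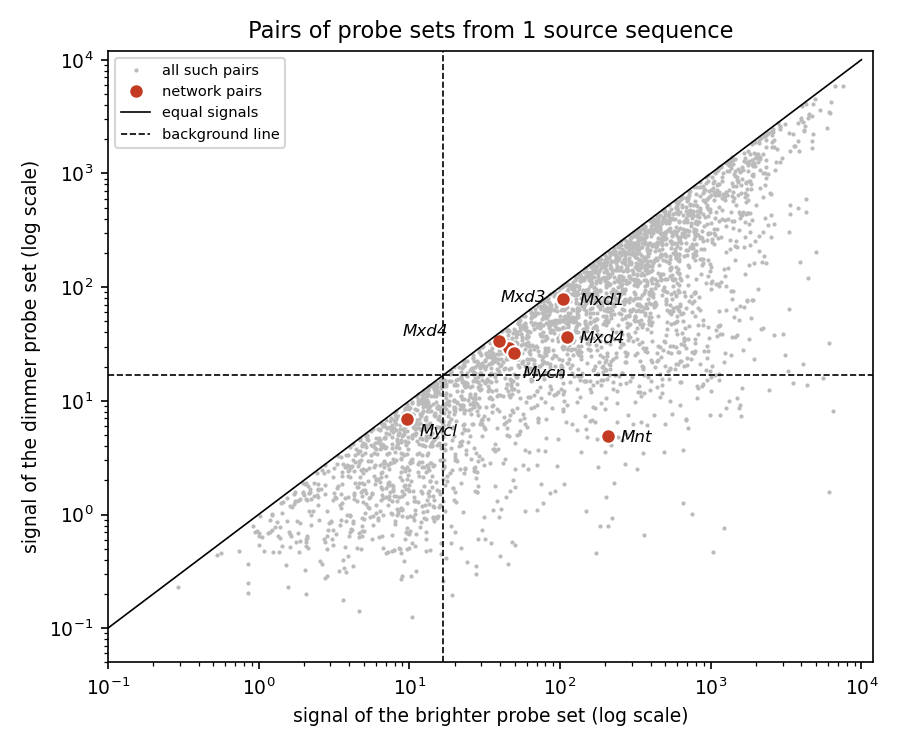
Brighter (x axis) against dimmer signal (y axis), both log axes in arbitrary units, for the 3223 pairs of probe sets that share a gene and a source sequence (grey) and the 7 network pairs (red, named). The diagonal marks equal signals and the dashed lines the background line at 16.8. The pair of Mnt, at 207 and 4.89, lies far below the diagonal, and the other network pairs lie within 3.08-fold of it.

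Around these genes, the partners that complete the network were unevenly detected. The gene lists from here on were chosen with earlier results of these data known, so their shares are not independent of the data. Mga, which encodes a large MAX-binding repressor, read 211, 143, 40.0, 18.6 and 1.55 on 5 probe sets, 4 of them above the line. Mlxip, the gene of MondoA, read 70.1 on its only probe set. Mlxipl, the gene of ChREBP, read 2.85 and was not above background. Of the MLX partners that sense nutrients, therefore, the MondoA gene was above the upper limit and the ChREBP gene was below the line, each on 1 probe set. Of 13 other factors that read E-boxes, 11 passed the line and 9 the upper limit, beside 63.3% and 47.5% of all measured genes, led by the circadian repressor gene Bhlhe40 at 1564 and the lipid regulators Srebf1 at 669 and Srebf2 at 469. Tfeb, a regulator of lysosome genes, at 14.3 and Tfec at 1.10 were not above background.

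Genes for the machinery that carries out activation and repression were above background on 1 probe set or more in every measured case. Over all measured genes this share was 63.3%, with a median highest signal of 48.3. Every probe set was above the line in 10 of 11 coactivator, 12 of 14 SIN3 and 13 of 16 turnover genes, beside 47.0% of all measured genes. All 11 measured coactivator genes of MYC were above the upper limit, with a median highest signal of 426, among them Actl6a at 801, Ruvbl1 at 653 and Ruvbl2 at 625, and Kat5 at 258 and Kat2a at 197, which encode histone acetyltransferases, at the low end. All 14 measured genes of the SIN3 complex were too, with a median of 551. The histone-binding subunit genes Rbbp7 and Rbbp4 reached 3425 and 3143 and the deacetylase gene Hdac1 1501, while Brms1 and Sap130 reached 161 and 155. All 16 measured genes for enzymes and regulators that act on MYC protein passed the line and 14 the upper limit, with a median of 502. They included Set, an inhibitor of a MYC phosphatase, at 4249, the phosphatase subunit Ppp2ca at 2686 and the ligase Stub1 at 1489.6. The other Ppp2ca probe sets read 393 and 16.2, the latter below the line. The lowest were the ligase subunit gene Btrc, at 47.3 with 3 of 5 probe sets above the line, and the deubiquitinase gene Usp28 at 40.5.

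Genes described as targets of the network were set beside the same shares, 63.3% of all measured genes for the line and 47.5% for the upper limit. These lists were among those chosen with earlier results of these data known. Of 26 measured genes described as activated by MYC, all passed the line, 22 of them on every probe set, and 25 passed the upper limit, with a median of 1456. The nucleolar protein gene Npm1 reached 6015, the lactate dehydrogenase gene Ldha 5742 and the cyclin D2 gene Ccnd2 5689.5, with all 7 Ccnd2 probe sets above the upper limit, while the ribosome factor gene Rrp9 read 143 and the telomerase gene Tert 37.2 and 12.2. Of 9 measured genes described as repressed by MYC, or their cofactor Zbtb17, 8 passed the line and 7 the upper limit, with a median of 191. The cell cycle inhibitor genes Cdkn2b at 1234, Cdkn1a at 905 and Cdkn1b at 553 led, and Cdkn1c at 42.8 and Gas1 at 15.1 were lowest. The other Cdkn1b probe set read 16.3, below the line. Both target lists were thus largely above background in the same cells, and the counts do not show whether MYC acted on either. Of 11 genes described as targets of MondoA or ChREBP, 9 (81.8%) passed the line and 6 (54.5%) the upper limit, the latter near the share of all genes, with a median of 121. The lipid synthesis genes Acly, Fasn and Elovl6 reached 2000.5, 1110.3 and 472, and Gpd1 at 8.61 and G6pc, the glucose-6-phosphatase gene of liver, at 2.85 were not above background. Of the 6 Acly probe sets, 4 were above the line, and the dimmest read 3.88.

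**Figure D5:**
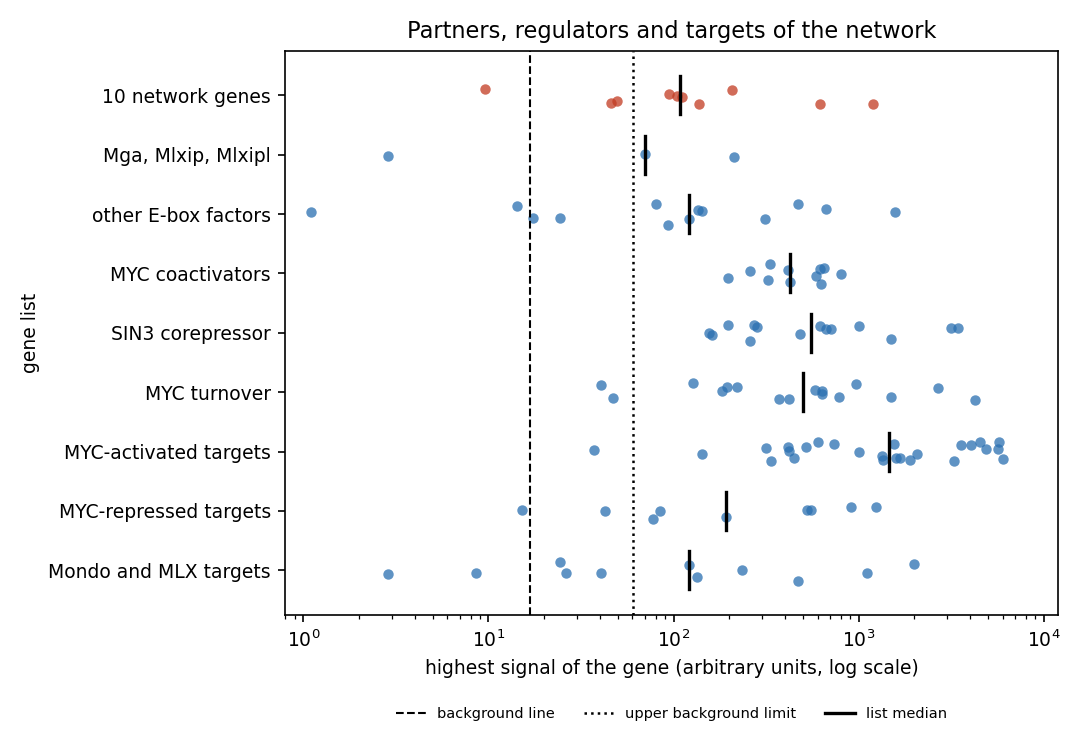
Highest signal of each gene (points, log axis, arbitrary units) in the 10 network genes (red) and 8 lists of partners, regulators and targets (blue), with list medians (black bars), the background line at 16.8 (dashed) and the upper background limit at 60.6 (dotted). Points are jittered vertically. The MYC-activated targets have their median at 1456, the network genes at 108.

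The E-box was also searched in these lists. Among the 21 measured MYC-activated genes with a window, 7 (33.3%) held CACGTG, beside 10.2% of measured genes, namely Pes1, Cdk4, Ldha, Eif4e, Eif4a1, Hspd1 and Nme1. The table sets 2 starts for Ldha, and the window of the first held 2 E-boxes and that of the second 0. These E-boxes are shown because Ldha is the 1 of these 7 genes among the list's 3 highest signals. The other genes of those 3, Npm1 and Ccnd2, had no window and were not searched.
Ldha distal (chr7:46845647-46845676, plus strand): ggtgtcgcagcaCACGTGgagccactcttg
Ldha proximal (chr7:46845744-46845773, plus strand): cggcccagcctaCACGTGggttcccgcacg

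They lay 145 and 48 bases before the first start. Of the 7 MYC-repressed genes with a window, 0 held the letters. Of 9 Mondo and MLX targets, 2 did, Arrdc4, which read 40.6 on both of its probe sets, and Khk, which read 26.1. In the other lists, 1 of 3 partners (Mlxipl), 1 of 10 other E-box factors, 1 of 11 coactivators, 1 of 10 SIN3 genes and 2 of 14 turnover genes did. The target lists were drawn from what is described of MYC and MLX, in which E-boxes play a part, so these shares are not independent of how the genes were chosen.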

How the data were processed

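The values deposited by the authors are intensities, linear and 1 per probe set. Per the submitters' processing notes they were made with Affymetrix Expression Console, while its algorithm, version, background correction and the genome build are not given in the sources. Of 45101 probe sets, 34945 named 1 gene in the platform annotation and were used. Symbols were updated by gene ID (RefSeq, GRCm38.p6; 34741 matched and 204 did not), signals were taken to log2, and a gene's level was its highest probe set. The members and gene lists were chosen with earlier results of these data known. Named genes were the 10 network genes and, of each list, the 3 highest and 2 lowest (all of a list of 5 or fewer), with marker genes fixed by name and genes with an E-box named for that match. Listed genes with no probe set of their own were left out of all counts, and protein sequences were not analysed here. Promoter sequences come from RefSeq. The calls were tested on simulated data in which present and absent genes lay far apart, so calls near the line were not tested. Alternatives changed the line, the background genes, the probe sets admitted, the combining rule and the symbols. Python 3.11.15, numpy 2.4.6, pandas 2.3.3, scipy 1.17.1 and matplotlib 3.10.9 were used.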

Additional observations from a re-analysis of the deposited data

Results flagged for a closer look

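Probe sets that named 2 genes were left out of the gene counts, and 6 of them named a gene of the lists above together with a near-identical copy. All 6 were above the background line of 16.8, which is why they are given here. The SIN3 complex gene Sap18, named with Sap18b, read 4015, 3124, 2150.2, 662 and 155 on 5 probe sets. The MYC-activated gene Ptma, which encodes a small acidic nuclear protein and was named with Gm15466, read 4589.6 on 1. The share of each gene in these signals was not tested. None of the 6 named a network gene.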

How the results depend on the processing

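The count of 9 network genes above the line was 9 under 8 of its 9 alternatives and 8 where every probe set had to pass. That alternative also turned Mnt, at -1.78 on the log2 scale against the line, lowered the network genes above the upper limit from 7 to 4, and the partners Mga, Mlxip and Mlxipl above the line from 2 to 1. With the line at the mean plus 2 SD of the log2 background, a signal of 45.0, 12 rather than 20 network probe sets passed. Mxd3 and Mycn passed this line by only 0.03 and 0.14 on the log2 scale, so the count of 9 rested there on readings close to the line. The other 92 of 95 values of counts stayed within 1.5 times, and no network gene but Mnt changed its side of the line. By the median of a gene's probe sets, Mnt and Mxd4 fell most, from 3.62 to 0.92 and from 2.73 to 1.17 in log2 over the line. With every probe set required, those that fell most after Mnt were Mxd1, from 2.63 to 0.73, Mxd4, to 1.01, and Mxi1, from 5.21 to 3.66. The 7 network genes above the upper limit became 9 with olfactory and vomeronasal background genes, whose limit was 19.2, and 9 with Y-linked ones. The Y-linked limit was 14.6, the same as the line of that setting and below the main line of 16.8. The count was 5 with the median of a gene's probe sets. It was 9 with the limit at the second highest background probe set, chosen after seeing the data, which 51.4% of all measured genes passed. The other counts in this paragraph have no share over all genes or probe sets beside them, so they describe the settings only. Signals near the background carry little information on amount, which touches Mycn, Mycl and Mxd3 most.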

Other observations

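Over all 14452 measured genes with a promoter window, 75.3% of the 1479 genes with CACGTG and 63.8% of the 12973 without were above the background line. The comparison palindrome GACGTC, which also holds a CpG, gave 81.5% and 63.8%, and CAGCTG, which holds none, gave 61.0% and 65.9%. Genes with CACGTG had a median of 23 CpG per window, again in the richest window of each gene, and those without 17. Among genes at or above the median of 18 CpG, 83.9% with CACGTG and 83.5% without were above the line. Among genes below it, the shares were 57.5% of 485 and 44.6% of 6544, with a median of 10 and 7 CpG per window. Over all these genes, those with CACGTG also had more probe sets, a median of 2 against 1. Genes with more probe sets pass the line more often. Within each CpG group the medians were equal, 2 and 2 at or above the median CpG and 1 and 1 below it. What accounts for the shares was not tested. These shares are across genes of 1 array, and genes are not independent replicates.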
